A study of Mus musculus with 12 samples.

Results

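The genes followed here encode cargo receptors that work between the endoplasmic reticulum (ER) and the Golgi and lie outside the TMED family. They are the KDEL receptors Kdelr1, Kdelr2 and Kdelr3, the retrieval receptor Rer1, the export receptors Surf4, Lman1, Lman2 and Mcfd2, and the ER-Golgi intermediate compartment proteins Ergic1 and Ergic3. They were taken by name for their place in ER retrieval and ER export, with earlier results of these data known. All 10 were found among the 46603 genes of the count table, and all 10 were among the 13167 genes that passed the expression filter.

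RNA was counted in OT-I/Cas9 CD8 T cells, mouse spleen cells that carry a transgenic T cell receptor for an ovalbumin peptide and express the Cas9 nuclease. All groups had been activated on antibodies to CD3 and CD28, transduced with a retroviral guide RNA, selected in puromycin and kept in medium with IL-2, IL-7 and IL-15, so the resting state is one without restimulation. Control-guide (Ctrl) cells were given water as vehicle or 100 µM AGN192403, an imidazoline receptor ligand used by the study to lower TMED proteins, and cells with guides to Tmed10 (Tmed10 KO) were given vehicle. Each was sampled at rest and after activation on 2.5 µg/mL anti-CD3, with 24 h of treatment, which gives 6 groups of 2 libraries. The knockout was a pool of guide-treated cells and not a clone, and AGN192403 was added to control-guide cells only, so the knockout and AGN192403 comparisons share their control libraries. Nothing in the labels says whether the replicates are separate cultures or mice, so p-values may measure technical spread only. Libraries held between 9089350 and 16481840 counts. The 8 CD8 T cell markers summed to between 11256 and 22540 CPM (counts relative to library size, as edgeR gives them) per library. Most of that sum was Gzmb, at 8460 to 20457 CPM, while Cd8a ran from 632 to 780 CPM. The 13 markers of other cells summed to between 1.34 and 8.27 CPM, with Hbb-bs and Ms4a1 at 0 in all libraries. The highest of them, Epcam, reached 6.42 CPM, and the next, Cd4, reached 1.29 CPM. In such bulk RNA, more cells of a kind and more RNA per cell cannot be told apart.

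Tmed10, the targeted gene, was at 116 and 117 CPM in resting control libraries and at 61.5 and 65.1 CPM in resting knockout libraries. In activated cells it was at 128 and 125 CPM in controls and at 55.9 and 58.3 CPM in the knockout. The knockout libraries were thus below all others in either state, with log2 fold changes of −0.89 ± 0.05 (SE) at rest and −1.15 ± 0.05 after activation (adjusted p 2.08e-11 and 6.85e-14). With AGN192403, Tmed10 transcript was higher than with vehicle, by 0.22 ± 0.05 at rest and 0.14 ± 0.05 after activation on the log2 scale (adjusted p 0.00123 and 0.0180). The call in activated cells was lost by DESeq2 (adjusted p 0.127) and by edgeR with no expression filter (adjusted p 0.0571). It was also lost without replicate 2 of the controls or of the AGN192403 cells, where the log2 fold change was 0.13 or 0.09. In this text adjusted p values come from edgeR's quasi-likelihood test with Benjamini-Hochberg adjustment over all 13167 genes, a gene is called at 0.05, and levels are CPM scaled by the trimmed mean of M-values (TMM).

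Soluble residents of the ER lumen, such as chaperones and protein disulfide isomerases, leak into the Golgi and are brought back by KDEL receptors, which bind a KDEL-type ending of the protein and return it in COPI-coated vesicles. Cargo receptors for export act in the other direction and hold soluble or glycosylated cargo while COPII-coated vesicles form. TMED10 is a p24 family cargo receptor of the same early secretory route, which CD8 T cells use for their surface receptors, cytokines and granzymes.

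Per kilobase of exon, Surf4 was the most abundant of the 10 transcripts in every group and Kdelr3 the least. In resting controls Surf4 stood at 90.5 ± 4.63 CPM per kb (SD, n = 2 for all groups), Rer1 at 84.8 ± 0.152 and Kdelr3 at 1.33 ± 0.217. Kdelr2 and Ergic3 (37.0 ± 1.97 and 36.2 ± 0.884 CPM per kb) had overlapping libraries there, so their order is not set. Lman1 ranked ninth in each resting group and seventh in each activated group. In activated AGN192403 cells Rer1 and Kdelr2 overlapped (97.2 ± 6.2 and 97.0 ± 2.69 CPM per kb), as did Ergic3 and Lman2. Over the 12 libraries the highest TMM-scaled level was 12 times the lowest for Kdelr3, 4.13 times for Lman1 and 2.78 times for Kdelr2, but only 1.20 times for Rer1 and 1.18 times for Ergic3.

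**Figure D1:**
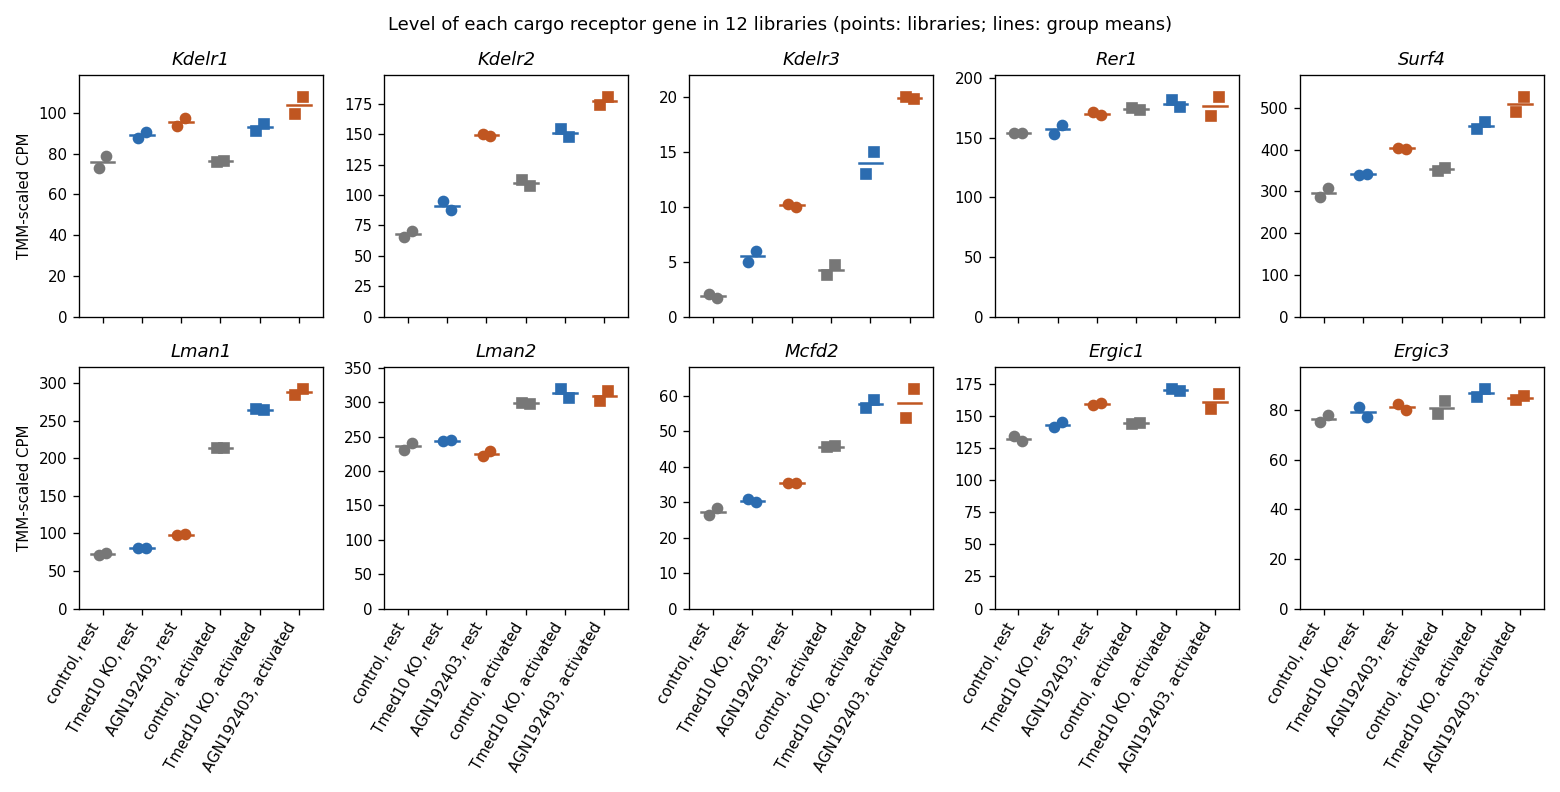
TMM-scaled CPM of each of the 10 genes in resting (circles) and activated (squares) libraries, with 2 libraries per group and a line at their mean. Kdelr3, Kdelr2, Kdelr1 and Surf4 were lowest in control vehicle cells of either state, and Lman1 and Mcfd2 separated resting from activated cells.

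Cells with Tmed10 guides had higher transcript levels of KDEL receptors and Surf4 in both states, and of Lman1, Mcfd2 and Ergic1 when activated. In activated knockout cells 7 of 10 were called higher and 0 lower than in activated controls, where 10.8% of all genes tested were called higher, and their median log2 fold change was 0.30 against 0.02 for all genes. In resting knockout cells 4 of 10 were called higher, against 2.81% of all genes, with a median of 0.15. That count was 2 of 10 without replicate 1 of the resting controls or without either resting knockout library, while the genes called in all fell from 979 to as few as 306, the latter without replicate 1 of the knockout. AGN192403 in control-guide cells gave 7 of 10 called higher after activation (16.4% of all genes) with a median of 0.39, and 8 of 10 at rest (11.6% of all genes) with a median of 0.35. No member was called lower in these 4 comparisons. Of all genes, 18.3% were called lower with AGN192403 after activation and 13.7% at rest. In the knockout 2583 of 13167 genes were called after activation, 1427 of them higher, and 979 at rest, 370 of them higher. For 10 members the absence of lower calls therefore says little. Kdelr1, Kdelr2, Kdelr3 and Surf4 were called higher in all 4 comparisons, and Lman2 and Ergic3 in none.

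**Figure D2:**
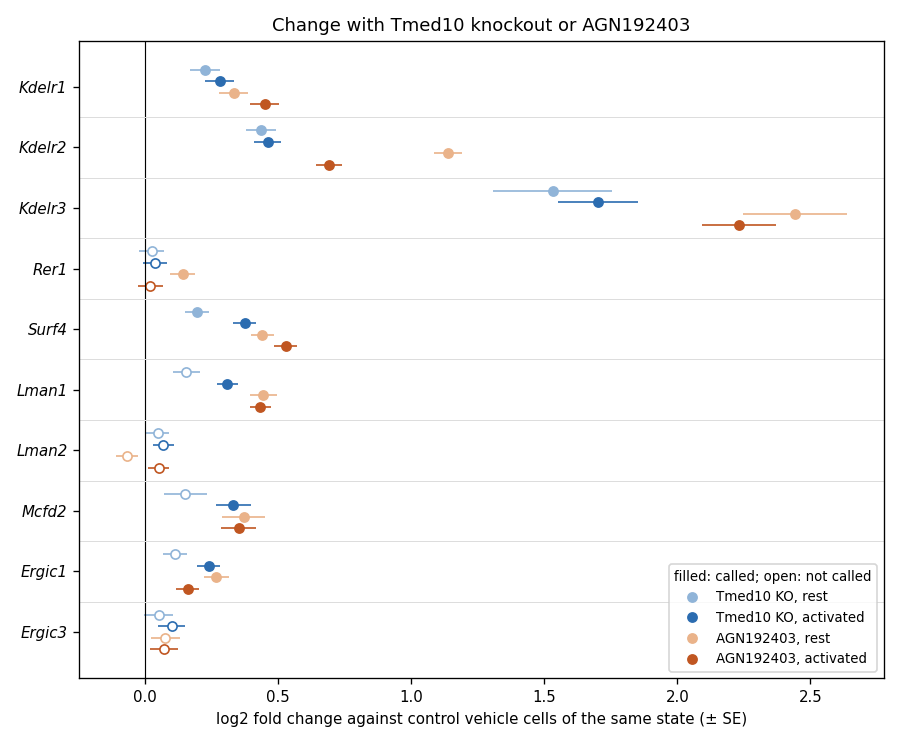
Log2 fold change ± SE of each gene against control vehicle cells of the same state, for the Tmed10 knockout and AGN192403. Kdelr3 had the largest value in each comparison, from 1.53 to 2.44, while every value of Lman2, Ergic3 and Rer1 was below 0.15.

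Kdelr3 (chromosome 15, 79516411 to 79527739, GRCm38) encodes the KDEL receptor with the lowest transcript level in these cells. It was at 2.1 and 1.66 CPM in resting controls, 5.0 and 6.0 CPM in resting knockout cells, and 10.3 and 10.0 CPM in resting AGN192403 cells. In activated cells it was at 3.75 and 4.70 CPM in controls, 13 and 15 CPM in the knockout, and 20.0 and 19.8 CPM with AGN192403. No library of a perturbed group overlapped its controls, and the activated controls stayed below even the resting knockout. With 2 libraries per group separation from controls is common: 25.6% to 31.5% of all genes lay wholly above them in these comparisons. In the activated knockout all 10 members did, 3 of them not called. The log2 fold change was 1.53 ± 0.22 in resting knockout cells (2.89-fold, adjusted p 5.56e-05) and 1.70 ± 0.15 in activated ones (3.25-fold, adjusted p 7.50e-09). With AGN192403 it was 2.44 ± 0.20 at rest (5.43-fold, adjusted p 6.73e-10) and 2.23 ± 0.14 after activation (4.70-fold, adjusted p 2.50e-12). The counts behind these values were low, from 21 to 269 reads per library.

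The promoter of Kdelr3 is shown because this gene changed most with the knockout and the compound, and that of Lman2 because it was called in neither. Both are the 250 bases before the RefSeq start (GRCm38.p6), at chr15:79516158-79516407 on the plus strand and chr13:55362784-55363033 on the minus strand, with CCACG or its reverse complement in capitals. In Kdelr3 the capitals also take in TGACGTG, read on the other strand.
Kdelr3: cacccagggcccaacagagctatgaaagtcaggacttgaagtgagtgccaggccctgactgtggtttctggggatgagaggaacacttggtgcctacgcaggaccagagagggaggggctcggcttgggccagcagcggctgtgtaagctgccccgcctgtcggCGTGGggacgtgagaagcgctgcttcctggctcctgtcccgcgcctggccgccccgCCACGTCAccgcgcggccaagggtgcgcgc
Lman2: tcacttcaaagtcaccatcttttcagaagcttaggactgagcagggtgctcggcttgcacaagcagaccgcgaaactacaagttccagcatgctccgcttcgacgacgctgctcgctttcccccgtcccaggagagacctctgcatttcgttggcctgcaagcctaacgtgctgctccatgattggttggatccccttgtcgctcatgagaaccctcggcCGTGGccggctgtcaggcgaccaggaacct

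TGACGTG is the core of the unfolded protein response element, to which ATF6 and XBP1 are known to bind, and CCACG is a shorter part of the ER stress response elements. Among the 8 members with a RefSeq promoter, only Kdelr3 held TGACGTG on either strand, 29 bases before its start, where it overlaps a CCACG. Of 32851 promoter windows of this length 1.65% held it. CCACG was in 6 of the 8 and in 28.3% of all windows, so it is common. Neither the full ER stress response element (CCAAT and CCACG with 9 bases between them, 0.113% of windows) nor its type II form (0.0304%) was found in any of the 8, and the ATF4 composite TGATGCAA (0.791%) was not found either. These motifs were chosen with the expression values known, and a match of letters is no evidence of a bound site. Kdelr2 and Lman1 had no entry.

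Kdelr2 (chromosome 5, 143403838 to 143421901) responded to every perturbation and to activation. It was at 65 and 70.1 CPM in resting controls, 95.2 and 87.3 CPM in resting knockout cells, and 150 and 149 CPM in resting AGN192403 cells. After activation it was at 112 and 107 CPM in controls, 154 and 147 CPM in the knockout, and 174 and 181 CPM with AGN192403. Relative to library size, Kdelr2 transcript was thus higher in resting cells under AGN192403 than in activated controls. The knockout raised it by 0.44 ± 0.06 at rest and 0.46 ± 0.05 after activation on the log2 scale (adjusted p 1.33e-05 and 2.29e-07). AGN192403 raised it by 1.14 ± 0.05 at rest and 0.69 ± 0.05 after activation (adjusted p 3.18e-14 and 2.67e-11).

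Kdelr1 (chromosome 7, 45872772 to 45883732) changed less than the other KDEL receptors. It was at 73.0 and 78.6 CPM in resting controls against 87.6 and 90.7 CPM in the knockout and 93.7 and 97.5 CPM with AGN192403. In activated cells it was at 75.8 and 76.5 CPM in controls against 91.1 and 94.6 CPM in the knockout and 99.6 and 108 CPM with AGN192403. Controls lay below both perturbed groups in either state, a separation upward that 25.6% to 31.5% of all genes had in each single comparison. The log2 fold changes were 0.23 ± 0.05 and 0.28 ± 0.05 for the knockout at rest and after activation (adjusted p 0.0110 and 0.000426), and 0.33 ± 0.05 and 0.45 ± 0.05 for AGN192403 (adjusted p 5.13e-05 and 2.48e-07). The call in resting knockout cells was lost without replicate 1 of the resting controls and without either resting knockout library (adjusted p 0.178, 0.0683 and 0.0976), and by DESeq2 (adjusted p 0.0525).

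Because the 3 genes moved by different amounts, the make-up of KDEL receptor transcripts shifted. Their sum per kilobase of exon was 76.0 and 81.5 CPM per kb in resting controls, 102 and 100 in resting knockout cells and 139 and 140 in resting AGN192403 cells. After activation it was 104 and 103 in controls, 142 and 142 in the knockout and 162 and 170 with AGN192403. Kdelr1 held 51.4% ± 0.156 of the sum in resting controls and 33.3% ± 0.746 in activated AGN192403 cells. Over the same span Kdelr3 went from 1.70% ± 0.359 to 8.48% ± 0.363. This span joins activation and compound, and activated controls had Kdelr1 at 39.2% ± 0.645 and Kdelr3 at 2.89% ± 0.488. The share of Kdelr2 hardly differed among activated cells, at 57.9% in controls, 58.1% in the knockout and 58.3% with AGN192403. At rest it did differ, at 46.9% in controls, 49.2% in the knockout and 58.4% with AGN192403. These shares are a description and were not tested.

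**Figure D3:**
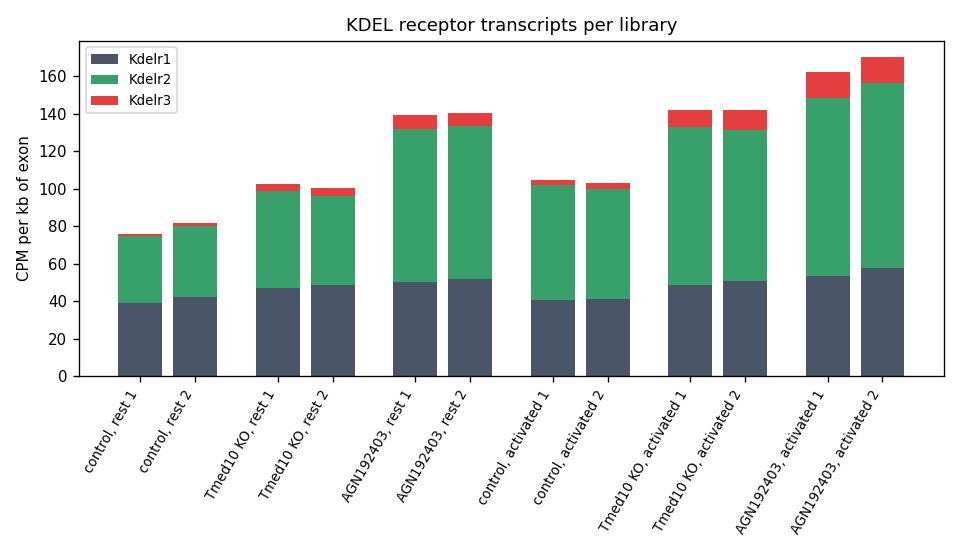
Stacked levels of the 3 KDEL receptor transcripts in CPM per kb of exon, 1 bar per library. The sum was lowest in resting control cells, at 76.0 and 81.5, and highest in activated AGN192403 cells, at 162 and 170, and Kdelr2 made up most of the gap between them.

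Rer1 (chromosome 4, 155074110 to 155086382), whose product returns membrane proteins and unassembled subunits to the ER, was nearly flat. It was at 154 and 154 CPM in resting controls, and its 12 libraries ran from 153 to 184 CPM. The knockout differed from controls by 0.02 at rest (95% interval −0.07 to 0.12) and by 0.04 after activation (−0.06 to 0.13) on the log2 scale. Only the resting AGN192403 cells were called higher, by 0.14 ± 0.05 (adjusted p 0.0284). This call was lost by DESeq2 (adjusted p 0.151) and without any one of the 4 libraries compared (log2 fold changes 0.14 to 0.17).

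Surf4 (chromosome 2, 26920040 to 26933928) encodes a multi-pass receptor that exports soluble cargo from the ER. It was at 286 and 308 CPM in resting controls, 339 and 342 CPM in the resting knockout and 405 and 403 CPM in resting AGN192403 cells. Activated cells gave 350 and 356 CPM in controls, 450 and 466 CPM in the knockout and 490 and 527 CPM with AGN192403. The order of control, knockout and AGN192403 held in both states without overlap. Against controls alone, 25.6% to 31.5% of all genes were higher without overlap in the single comparisons. The knockout raised Surf4 by 0.20 ± 0.04 at rest and 0.38 ± 0.04 after activation (adjusted p 0.00572 and 5.83e-07), and AGN192403 by 0.44 ± 0.04 and 0.53 ± 0.04 (adjusted p 2.96e-08 and 3.57e-10). At rest the knockout call was lost without replicate 1 of the controls (adjusted p 0.164) or without either knockout library (0.0698 and 0.0679). Surf4 shares 144 exon bases with Surf2 on the opposite strand. The libraries were made to keep strand, but the strand setting of the counting is not given in the sources used here.

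Lman1 (chromosome 18, 65980738 to 66022580) encodes ERGIC-53, a mannose-binding lectin that cycles between ER and intermediate compartment, and Mcfd2 (chromosome 17, 87254443 to 87265935) its calcium-binding partner. Together they export certain glycoproteins, blood coagulation factors being the known example. Lman1 was at 70.9 and 73.8 CPM in resting controls, 80.8 and 80.7 CPM in the resting knockout and 97.3 and 99.8 CPM with AGN192403. In activated cells it was at 214 and 214 CPM in controls, 266 and 264 CPM in the knockout and 285 and 293 CPM with AGN192403. The perturbed libraries lay above controls in both states, and all activated libraries lay far above all resting ones. Of all genes, 25.6% to 31.5% lay wholly above controls in a perturbation comparison, and 40.4% to 43.2% above rest in an activation comparison. AGN192403 raised Lman1 by 0.44 ± 0.05 at rest and 0.43 ± 0.04 after activation (adjusted p 1.95e-07 and 2.57e-09), and the knockout by 0.31 ± 0.04 after activation (adjusted p 2.69e-06). The resting knockout, at 0.16 ± 0.05, was not called (adjusted p 0.0624), but it was on median-ratio size factors (0.0412), on library totals (0.0286) and without either activated AGN192403 library (0.0439 and 0.0437).

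Mcfd2 moved the same way as its partner in the perturbations. It was at 26.3 and 28.4 CPM in resting controls, 30.8 and 30 CPM in the resting knockout and 35.5 and 35.5 CPM with AGN192403. Activated cells gave 45.5 and 45.7 CPM in controls, 56.6 and 58.7 CPM in the knockout and 53.8 and 62.0 CPM with AGN192403. It rose by 0.33 ± 0.07 in the activated knockout (adjusted p 0.000595), and by 0.37 ± 0.08 and 0.35 ± 0.07 with AGN192403 at rest and after activation (adjusted p 0.00118 and 0.000143). The resting knockout gave 0.15 ± 0.08 and was not called (adjusted p 0.313). Per kilobase, Mcfd2 stood at 1.18 ± 0.0304 times Lman1 in resting controls and at 0.666 ± 0.00227 times in activated controls, and the perturbed groups of each state were near these, at 1.12 to 1.18 and at 0.625 to 0.679.

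Lman2 (chromosome 13, 55343833 to 55362783) encodes VIP36, a second lectin of the early secretory pathway, and it was called in none of the 4 comparisons. It was at 231 and 241 CPM in resting controls, 244 and 245 CPM in the resting knockout and 222 and 229 CPM in resting AGN192403 cells. The 95% intervals of its log2 fold change were −0.04 to 0.14 and −0.01 to 0.15 for the knockout at rest and after activation, and −0.16 to 0.02 and −0.03 to 0.14 for AGN192403. A rise of the size seen for Lman1 with AGN192403 lies outside these intervals.

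Ergic1 (chromosome 17, 26561489 to 26656934) and Ergic3 (chromosome 2, 156008045 to 156018279) encode membrane proteins that cycle through the intermediate compartment. Ergic1 was at 134 and 131 CPM in resting controls, 141 and 146 CPM in the resting knockout and 159 and 160 CPM with AGN192403. After activation it was at 144 and 145 CPM in controls, 172 and 170 CPM in the knockout and 156 and 167 CPM with AGN192403. It rose by 0.24 ± 0.04 in the activated knockout (adjusted p 0.000295), by 0.27 ± 0.05 with AGN192403 at rest (adjusted p 8.03e-05) and by 0.16 ± 0.04 with AGN192403 after activation (adjusted p 0.00664). The last of these was lost without replicate 2 of the activated AGN192403 cells (adjusted p 0.133), and the resting knockout was not called (0.11 ± 0.05, adjusted p 0.150). Ergic3 ran from 75.4 to 88.8 CPM over all libraries and was not called in any of the 4 comparisons, with log2 fold changes of 0.05 to 0.10.

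Restimulation on anti-CD3 was compared with rest in each condition. In control vehicle cells 8 of 10 members were called higher, while 36.4% of all genes were called higher and 37.4% lower. In the knockout 9 of 10 were called higher (37.2% of all genes), and with AGN192403 7 of 10 (33.9% of all genes). No member was called lower in any condition. The lectin Lman1 rose most, by 1.56 ± 0.05 in controls, 1.71 ± 0.04 in the knockout and 1.55 ± 0.04 with AGN192403 on the log2 scale (adjusted p 3.98e-20, 2.90e-21 and 1.70e-20). Kdelr3 followed with 1.18 ± 0.24, 1.35 ± 0.14 and 0.97 ± 0.12 (adjusted p 8.65e-05, 3.32e-09 and 5.29e-08), then Mcfd2 with 0.73 ± 0.08, 0.91 ± 0.07 and 0.71 ± 0.07 (adjusted p 4.30e-09, 1.40e-11 and 1.41e-09).

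Lman2, which did not pass the test in the perturbations, rose with activation by 0.34 ± 0.04, 0.36 ± 0.04 and 0.46 ± 0.04 in the same order (adjusted p 8.85e-08, 2.60e-08 and 5.07e-10). For Kdelr1 the control difference between activated and resting cells was 0.00, with a 95% interval of −0.11 to 0.12. It was called higher with AGN192403 (0.12 ± 0.05, adjusted p 0.0460). This call was lost by DESeq2 (adjusted p 0.0976), and by edgeR on library totals (0.0630) or with no expression filter (0.0754). The call was also lost when any one of 8 of the 12 libraries was left out (log2 fold changes 0.05 to 0.12). Surf4 rose by 0.25 ± 0.04, 0.43 ± 0.04 and 0.33 ± 0.04 (adjusted p 2.12e-05, 2.66e-09 and 1.72e-07). Rer1 was called higher in controls (0.18 ± 0.05) and in the knockout (0.19 ± 0.05), Ergic1 in controls (0.13 ± 0.05) and in the knockout (0.25 ± 0.04), and Ergic3 in the knockout only (0.13 ± 0.05, adjusted p 0.0317). The Ergic1 call in controls was lost without replicate 2 of either control group (adjusted p 0.107 and 0.0590). The Ergic3 call was lost by DESeq2 (adjusted p 0.169) and by edgeR on library totals (adjusted p 0.137). Without replicate 2 of either knockout group it was lost too, with log2 fold changes of 0.09 and 0.10. Whether the Ergic3 response differed between conditions was not shown.

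**Figure D4:**
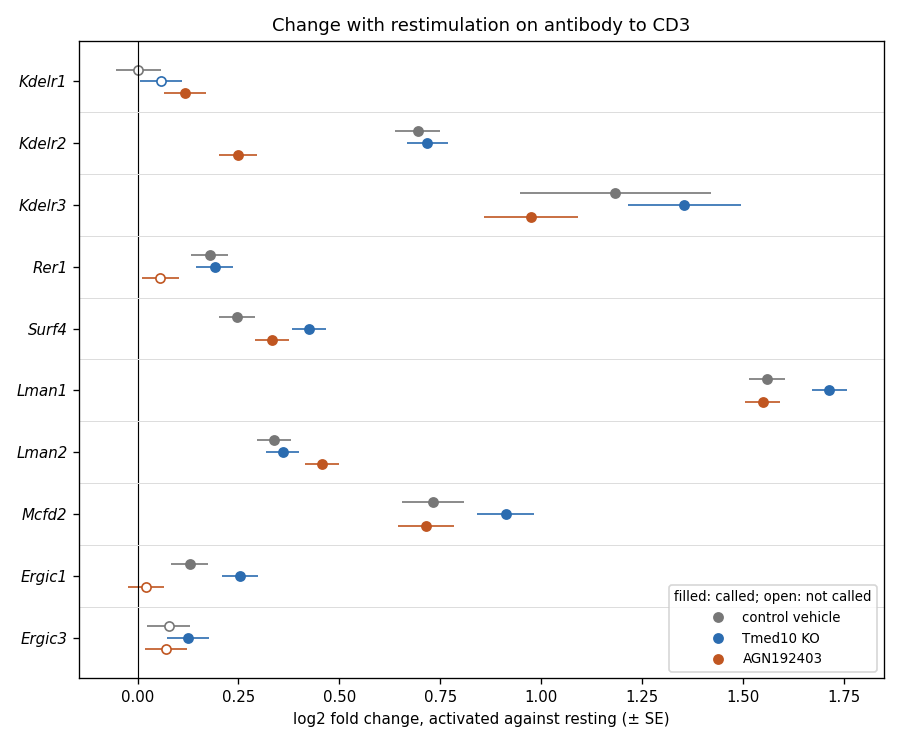
Log2 fold change ± SE between activated and resting cells for each gene in control vehicle, Tmed10 KO and AGN192403 cells. Lman1 had the largest value in all 3 conditions, from 1.55 to 1.71, and Kdelr2 rose less with AGN192403 (0.25) than in controls (0.69).

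The difference between activation responses was tested as an interaction. For the knockout against controls 0 of 10 members passed (4.96% of all genes were called in either direction), and 0 of 10 were called by DESeq2. At an unadjusted p under 0.05 there were 2 of 10, Surf4 and Lman1, near the 16.2% of all genes. Surf4 had 0.18 ± 0.06 (adjusted p 0.108), and it was called without either activated AGN192403 library (adjusted p 0.0350 and 0.0353) and with a replicate block (0.0462). For AGN192403 against vehicle 1 of 10, Kdelr2, was called lower, a count near the 11.1% of all genes called lower. Its activation response was smaller by 0.45 ± 0.07 on the log2 scale (adjusted p 8.73e-05), 0.25 ± 0.05 with AGN192403 against 0.69 ± 0.06 in controls, the AGN192403 effect being larger at rest. For Kdelr3 the differences were 0.17 (95% interval −0.44 to 0.78) for the knockout and −0.21 (−0.76 to 0.35) for AGN192403, too wide to place its responses apart or together.

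The knockout and AGN192403 were also compared directly. In activated cells 5 of 10 members, Kdelr1, Kdelr2, Kdelr3, Surf4 and Lman1, were called lower in the knockout than with AGN192403 (7.34% of all genes), and none higher. At rest 5 of 10 were called lower (7.78% of all genes), here Kdelr2, Kdelr3, Surf4, Lman1 and Ergic1. The widest gaps were those of Kdelr3 and Kdelr2 at rest, at −0.91 ± 0.15 and −0.70 ± 0.05 (adjusted p 9.61e-05 and 3.53e-10). In activated cells they were −0.53 ± 0.11 and −0.23 ± 0.05 (adjusted p 0.000832 and 0.000777). The count in activated cells depends on single libraries: without replicate 1 of the activated knockout 1 of 10 was called, without replicate 2 of the activated AGN192403 cells 2 of 10, and by DESeq2 3 of 10. At rest the count of calls in either direction rose without either activated AGN192403 library, by Rer1, Lman2 and Mcfd2. Of these Lman2 was higher in the knockout, at 0.12 ± 0.04 in the main fit, where it was not called (adjusted p 0.0674).

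Of 11 other cargo receptor and export adaptor genes 9 were tested. In the activated knockout 4 of 9 were called higher (10.8% of all genes) and 0 lower, and in the resting knockout 0 of 9 either way (2.81% of all genes higher). With AGN192403, 4 were called higher and 2 lower after activation (16.4% and 18.3% of all genes), and 3 higher and 2 lower at rest (11.6% and 13.7% of all genes). With 9 genes tested, the 2 lower calls lie near the share of all genes. Mia3, which encodes the TANGO1 scaffold of ER exit sites, and its partner Mia2 (cTAGE5) rose with AGN192403, Mia3 by 0.55 ± 0.05 at rest and 0.45 ± 0.05 after activation and Mia2 by 0.47 ± 0.05 and 0.46 ± 0.04. In the activated knockout Mia2 rose by 0.30 ± 0.04, Mia3 by 0.24 ± 0.05 and the cornichon Cnih1, an export receptor for membrane growth factors, by 0.29 ± 0.05 (adjusted p 1.54e-05, 0.00153 and 0.000255). Bcap31, an ER membrane chaperone, fell by 0.22 ± 0.05 with AGN192403 at rest (adjusted p 0.00167), a call lost without replicate 1 of those cells (0.0553). In control cells activation gave 8 of 9 called higher and 0 lower, where 36.4% and 37.4% of all genes were.

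The KDEL receptors' likely ligands were followed through a list of 42 ER luminal protein genes. By translation of the annotated coding sequences 26 of them end in a KDEL-type signal, meaning K, R, H, Q, S or A, then D, E, N or Q, then E and L, and 23 of these were tested. In the activated knockout 13 of 23 were called higher (10.8% of all genes) and 0 lower, with a median log2 fold change of 0.27, and in the resting knockout 6 of 23 (2.81% of all genes) and 0, with a median of 0.08. With AGN192403 after activation, 16 of 23 were called higher and 0 lower (16.4% and 18.3% of all genes), with a median of 0.31. With AGN192403 at rest 11 were called higher and 1 lower (11.6% and 13.7% of all genes), with a median of 0.21. The 16 ER luminal genes without this ending had 9 called higher in the activated knockout (median 0.19), 1 in the resting knockout (0.04), 9 with AGN192403 after activation (0.28) and 5 at rest (0.18), and 0 called lower. The 2 sets of luminal genes were not tested against each other. Only this pattern of ending was searched, so the 16 are not a set of known non-ligands.

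Among the genes with a KDEL-type ending Hspa5, encoding the chaperone BiP, was at 1863 CPM in activated controls, 2526 CPM in the activated knockout and 2829 CPM with AGN192403 as group means. Its log2 fold changes were 0.44 ± 0.03 in the activated knockout and 0.60 ± 0.03 with AGN192403 after activation (adjusted p 9.91e-10 and 4.48e-13). At rest Hspa5 was called with AGN192403 (0.44 ± 0.04) but not in the knockout (0.08). The genes named here are called ones with the largest changes, and 17 of 23 were not called in the resting knockout. Pdia5, a protein disulfide isomerase, rose in all 4 comparisons, by 0.85 ± 0.21 and 0.86 ± 0.10 in the knockout at rest and after activation and by 1.23 ± 0.20 and 1.04 ± 0.10 with AGN192403. At rest in the knockout this call was lost without either control library or without replicate 2 of the knockout (adjusted p 0.0821, 0.0971 and 0.110). Txndc5, another disulfide isomerase, rose by 0.28 ± 0.05 in the resting knockout (lost without replicate 1 of the knockout, adjusted p 0.0519) and by 0.57 ± 0.05 with AGN192403 at rest, and P4hb, encoding protein disulfide isomerase itself, by 0.48 ± 0.04 with AGN192403 at rest. Of the luminal genes without the ending, Dnajc3 (the co-chaperone p58IPK) rose by 0.34 ± 0.04 and Pdia3 (ERp57) by 0.32 ± 0.04 in the activated knockout, and Hyou1, a large ER chaperone, by 0.50 ± 0.05 with AGN192403 at rest. In control cells activation gave 16 of 23 genes with the ending called higher and 3 lower, against 36.4% and 37.4% of all genes.

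**Figure D5:**
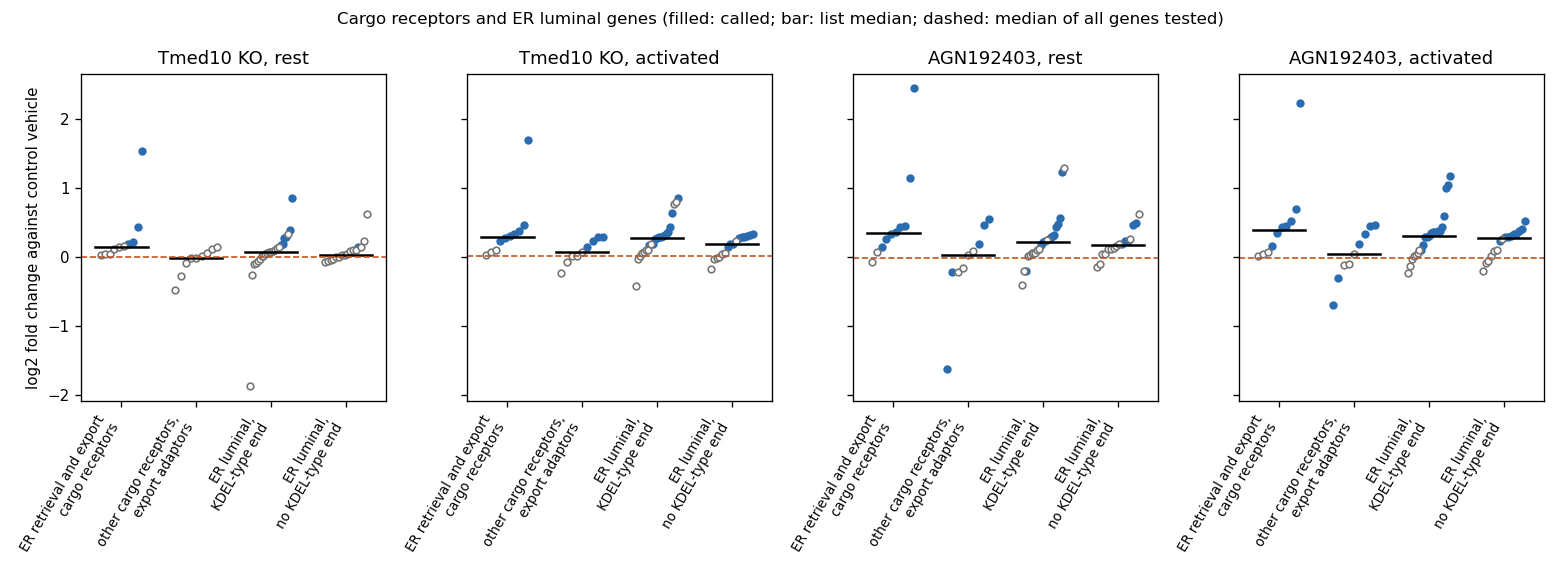
Log2 fold change against control vehicle cells for every tested gene of 4 lists in 4 comparisons, filled where called, with the list median as a bar and the median of all genes tested as a dashed line. The bar of the 10 cargo receptors lay between 0.15 and 0.39, above that of the other cargo receptors and export adaptors in each panel.

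The genes whose levels ran most like each member were found by Pearson correlation of log2 CPM after each state's mean was removed, over the 12 libraries and among genes of at least 10 CPM. The points share libraries, depth and the large perturbation effects, so high values are common and carry no test. For Kdelr3 the closest was Aldh1l2, a mitochondrial folate enzyme (r = 0.992), and for Kdelr2 the amino acid transporter Slc7a5 (0.993), followed by Copb2, a COPI coat subunit (0.992), and Asns, asparagine synthetase (0.992). Calu, encoding the luminal calcium-binding protein calumenin, was closest to both Kdelr1 (0.989) and Surf4 (0.994). Lman1 ran closest to Tmem167b (0.997), Mcfd2 to Nras (0.984) and Ergic1 to Rab7 (0.967), with Pdia4 in the third place (0.960). Between members, Lman1 and Surf4 were most alike (r = 0.986), whereas Lman2 had r between −0.220 and 0.190 with the other 9.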

How the data were processed

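Polyadenylated RNA was measured in 12 libraries (6 groups of 2, named per the labels). The deposited values are whole read counts, produced by the authors with STAR 2.6.0c and HTSeq on GRCm38 (mm10) per the labels; the study's methods name another STAR version, strand-specific libraries and 65-base single reads, and the RNA kit differs between labels and methods. Of 46603 genes, filterByExpr kept 13167 (99.9% of counts). Counts were fitted in edgeR 4.0.16 (R 4.3.3) by quasi-likelihood with TMM factors (0.976 to 1.02), 1 mean per group over all 12 libraries and 6 residual degrees of freedom. Replicates spread with a common biological coefficient of 0.0306. Standard errors (SE) came from the F statistic. Levels per kilobase used the union of exons in GENCODE M21, which also gave positions and coding sequences, and promoters were those of RefSeq. Read in the sense direction, no 65-base stretch of a member's transcripts occurs in an annotated transcript of another gene, except 6 of Lman2. The opposite strand was not searched. The 11 contrasts were each perturbation against control vehicle in each state, activation in 3 conditions, their differences, and knockout against AGN192403.

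Members and lists were chosen with earlier results of these data known. By rule the text names all 10 members, Tmed10, up to 4 called genes of each list per contrast with control vehicle (largest changes, not all printed), and the 3 genes most like each member (not all printed; prior count 2). Alternatives were other scalings, filters (none, or 5 CPM in 2 libraries), a replicate block, fits of only the contrast's libraries, DESeq2 1.42.0 and leaving out each library; for listed genes these were added after their values were seen. The scripts were tested on simulated data. Replicate numbers were not used as pairs.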

Additional observations from a re-analysis of the deposited data

Results flagged for a closer look

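The response to AGN192403 differed between the states for Kdelr2. The difference, AGN192403 effect after activation minus that at rest, was −0.446 on the log2 scale (SE 0.0732, edgeR adjusted p 8.73e-05), and it was called under all 19 alternatives, with values from −0.506 to −0.397.

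The knockout effect on Tmed10 transcript itself differed between the states, by −0.266 (SE 0.0749, edgeR adjusted p 0.0370), the fall being larger after activation. This call was lost under 10 of 19 alternatives, with values from −0.312 to −0.230. No member other than Kdelr2 had a difference between states that passed the test. For AGN192403 this 1 of 10 is near the 11.1% of all genes called lower in that comparison.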

How the results depend on the processing

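Of 70 member values in the 7 comparisons with control vehicle or rest, 50 were called; 43 of these were called under all 19 alternatives, 7 were lost under at least 1, and none changed sign. Of 20 not called, 2 (Lman1 in the resting knockout, Rer1 under AGN192403 with activation) were called under at least 1. With 1 library left out, the lone library of its group was assumed to vary like the others.

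DESeq2 called fewer genes in all: 1430 against 2583 in the activated knockout, 380 against 979 at rest, 3031 against 4570 and 1935 against 3341 with AGN192403 after activation and at rest, 312 against 653 and 1491 against 2592 for the differences in activation response of knockout and AGN192403, and 1525 against 2673 and 1297 against 2186 for knockout against AGN192403 after activation and at rest. Among members, knockout against AGN192403 after activation gave 3 called by DESeq2 and 2 with no expression filter, against 5. At rest it gave 8 with only the libraries of the comparison, against 5, and of these Lman2 was higher in the knockout. The cause was not tested.

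Replicate numbers were used as pairs only if the correlation of replicate differences passed 0.1 in each of 15 pairs of groups. It ran from −0.00507 to 0.239 and passed in 3 (0.189, 0.213 and 0.239), which join both control vehicle groups and the activated AGN192403 cells, so the numbers may tie those groups. A replicate block called 1 member, Surf4, against 0 for the difference in activation response of the knockout (adjusted p 0.0462), and 5 against 4 in the resting knockout, with Lman1 added (adjusted p 0.0411). It moved no other count of members by over 1.5 times, and gave 2993 against 2583 genes in the activated knockout.

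With libraries left out in turn, members called ran from 7 to 7 in the activated and 2 to 5 in the resting knockout, 6 to 7 and 7 to 8 with AGN192403 after activation and at rest, 7 to 8, 8 to 9 and 6 to 8 for activation in controls, knockout and AGN192403, 0 to 1 and 1 to 2 for the differences of knockout and AGN192403, and 1 to 5 and 4 to 8 for knockout against AGN192403 after activation and at rest. The resting knockout gave 2 without replicate 1 of the controls or without either knockout library. Without replicate 2 of the activated AGN192403 cells 1 member was called for the difference of the knockout and 2 for that of AGN192403. All genes called ran from 1546 to 2944 in the activated and 306 to 1346 in the resting knockout, lowest without replicate 1 of the activated controls and replicate 1 of the resting knockout, 1883 to 3688 with AGN192403 at rest (lowest without its replicate 2), 336 to 896 for the knockout difference, and 1726 to 2765 and 1056 to 2526 for knockout against AGN192403 after activation and at rest.

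Changes of sign touched only values near 0 that were not called: Kdelr1 with activation in controls was −0.0193 on library totals and −0.0456 to 0.0606 with libraries left out. Without 1 library Rer1 ran from −0.00796 to 0.0636 in the resting knockout, −0.0492 to 0.0812 with AGN192403 after activation and −0.0126 to 0.118 with activation under AGN192403, and Ergic1 from −0.0366 to 0.0698 in the last. Low depth limits Kdelr3, whose SE reached 0.29. Scaling moved the median of all genes by less than 0.05 in each comparison.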

Other observations

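Among the listed genes that did not pass the expression filter, Lman1l and Cnih3 had group means of at most 0.577 and 0.336 CPM, and Serpinh1, Fkbp10 and Fkbp14 of at most 0.05, 0.2 and 0.0538 CPM. Fkbp9 and Rcn3, luminal proteins with a KDEL-type ending, were called higher with AGN192403 after activation (log2 fold changes 1.17 ± 0.38 and 1.01 ± 0.35) at group means of 2.53 and 2.12 CPM. The cornichon Cnih2 was called lower with AGN192403 at rest (−1.61 ± 0.35) and after activation (−0.69 ± 0.25), at means of 0.727 against 2.23 CPM and 2.15 against 3.47 CPM. These calls rest on few reads, and without 1 library those of Cnih2 and Rcn3 after activation were lost under 4 and 3 of the 12 exclusions and that of Fkbp9 under 3.

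The 2 activated AGN192403 libraries differed most of any replicates, with a chi-square per degree of freedom of 3.86 over all genes against 1.13 to 2.24 in the other groups. There 9 of 10 members were higher in replicate 2, as were 56.1% of all genes tested.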
